A study of Homo sapiens with 12 samples.

Results

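The chaperones of the endoplasmic reticulum were examined as 10 genes, HSPA5, HSP90B1, HYOU1, DNAJB9, SDF2L1, CALR, CANX, PDIA3, PDIA4 and PDIA6. A gene was taken with all probes that carried its symbol, or an older symbol of the same Entrez identifier, in the probe annotation. This gave 12 of the 47311 probes with values, with 2 probes each for CANX and HYOU1. Signals were measured on 12 Illumina bead arrays in TPC1, BCPAP and K1, established cell lines from human papillary thyroid cancer. The cells were untreated, which means no treatment at all, or were exposed to 10 µM Y15 for 24 h, and each of the 6 groups had 2 arrays. Y15 is a small molecule that inhibits focal adhesion kinase (FAK), and it was dissolved in phosphate buffered saline. K1 cells were grown in a different mixture of media from TPC1 and BCPAP cells, so line and medium cannot be told apart for K1. Each line stands for 1 tumor, and no source says that the duplicates of these lines were separate plates, so the tests rest on a spread between samples that may be technical.

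Proteins that enter the secretory pathway fold in the endoplasmic reticulum with the help of resident chaperones. Hsp70 and Hsp90 class proteins hold unfolded chains, the lectins calreticulin and calnexin hold chains that carry sugar trees, and protein disulfide isomerases make and rearrange disulfide bonds. When unfolded proteins build up, the sensors IRE1, PERK and ATF6 start the unfolded protein response, and chaperone genes are among its best known targets. Thyroid cells rely on this machinery because thyroglobulin, the precursor of thyroid hormone, is a large secreted protein with many disulfide bonds.

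Replicates of a group correlated at 0.979 to 0.998 over the genes tested, lowest in K1 with Y15. An array had 16004 to 20376 probes above background (detection p under 0.05) and a mean signal of 215.4 to 393, and both lowest values belonged to replicate 2 of untreated BCPAP. Among 8 thyroid follicular cell markers on the array, the transcription factors PAX8 and FOXE1 were above background on all arrays of every line and NKX2-1 only on those of BCPAP. TG, which encodes thyroglobulin, and the iodide transporter gene SLC5A5 were above background on no array. TSHR was above background on 1 array of TPC1, DIO1 on 1 of each line and DIO2 on 1 of BCPAP. Of 6 epithelial markers, KRT8 and KRT18 were above background on all 12 arrays and CDH1 on no array. KRT7 was above background on all arrays of TPC1 and BCPAP and on 2 of K1. KRT19 was so only in K1, on all 4 arrays, and EPCAM on 4 arrays of BCPAP and 1 of K1. Of 9 markers of other cell types, 4 were above background on no array (PTPRC, CD3E, VWF and CALCA) and CD14 was above background on all. COL1A1 was above background on 2 arrays of TPC1, 4 of BCPAP and 3 of K1. PECAM1 was so on 1 array of TPC1, and COL3A1 and CHGA each on 1 of TPC1 and 1 of BCPAP. In a bulk sample fewer cells of a kind and less RNA per cell cannot be told apart.

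The start regions of the chaperone genes are shown because the unfolded protein response is known to act through 2 sequence elements there. The endoplasmic reticulum stress response element (ERSE), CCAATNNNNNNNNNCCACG, is bound by NF-Y together with ATF6, and ERSE-II, ATTGGNCCACG, is a shorter relative. Both strands of RefSeq windows from 250 bases before to 50 after each gene start (GRCh38.p14) were searched. An ERSE was found in 27 of 35116 windows (0.0769%), which belong to 25 of 27305 genes (0.0916%). Of the 9 chaperone genes with a window 5 held one, namely HSPA5, HSP90B1, CALR, CANX and PDIA6. An ERSE-II was found in 19 of 35116 windows (0.0541%), which belong to 19 of 27305 genes (0.0696%), among them SDF2L1 and HYOU1. No match to either was found in the windows of DNAJB9 and PDIA4, and no window held both. The first 3 sequences below, the 250 bases before the start, belong to genes that Y15 moved in different ways, and DNAJB9 is shown for its lack of a match. The last 4 are the matches of the other genes with 10 bases on either side. Capitals mark the match, which reads CGTGG first where it lies on the opposite strand. The windows are chr9:125241344-125241593 (minus strand, match 66 to 48 bases before the start), chr12:103930160-103930409 (plus strand, matches at 194 to 176 and 89 to 71), chr11:119057206-119057455 (minus strand, 185 to 175 and 79 to 69) and chr7:108569624-108569873 (plus strand). The shorter stretches are chr22:21642104-21642134 (plus strand, match 188 to 178 bases before the start), chr19:12938374-12938412 (plus strand, 225 to 207), chr5:179698768-179698806 (plus strand, 151 to 133 before 1 of its starts) and chr2:10812843-10812881 (minus strand, 86 to 68).
HSPA5: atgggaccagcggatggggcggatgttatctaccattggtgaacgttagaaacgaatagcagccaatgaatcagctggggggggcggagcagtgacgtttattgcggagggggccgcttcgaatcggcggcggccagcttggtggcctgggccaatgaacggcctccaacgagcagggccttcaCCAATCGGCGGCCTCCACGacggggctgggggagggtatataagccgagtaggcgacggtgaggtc
HSP90B1: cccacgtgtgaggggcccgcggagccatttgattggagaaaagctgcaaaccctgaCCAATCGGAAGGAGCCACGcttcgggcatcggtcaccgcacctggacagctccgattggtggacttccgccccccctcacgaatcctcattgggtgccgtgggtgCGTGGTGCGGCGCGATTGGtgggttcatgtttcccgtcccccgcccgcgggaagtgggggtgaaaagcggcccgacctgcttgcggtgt
HYOU1: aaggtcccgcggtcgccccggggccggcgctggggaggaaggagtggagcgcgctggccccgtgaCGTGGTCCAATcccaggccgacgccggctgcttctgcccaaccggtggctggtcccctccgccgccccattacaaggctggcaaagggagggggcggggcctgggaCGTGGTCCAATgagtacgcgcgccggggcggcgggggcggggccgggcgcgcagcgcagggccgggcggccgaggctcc
DNAJB9: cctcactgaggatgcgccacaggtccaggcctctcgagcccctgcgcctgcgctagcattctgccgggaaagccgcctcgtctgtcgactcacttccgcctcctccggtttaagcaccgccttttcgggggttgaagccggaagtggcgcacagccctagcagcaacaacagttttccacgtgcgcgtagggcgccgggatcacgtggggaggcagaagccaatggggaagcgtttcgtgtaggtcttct
SDF2L1: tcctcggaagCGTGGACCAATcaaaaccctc
CALR: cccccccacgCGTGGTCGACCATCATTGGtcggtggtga
CANX: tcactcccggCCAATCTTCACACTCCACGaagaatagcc
PDIA6: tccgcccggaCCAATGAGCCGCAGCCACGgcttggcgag

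Most of the chaperone genes were lower with Y15 in each line, although in BCPAP PDIA6, SDF2L1 and HSPA5 turned positive when each array was centred on its median. DNAJB9, in contrast, rose in TPC1 and BCPAP, and HYOU1 rose in TPC1. Of the 9 genes tested in TPC1, limma called 5 lower and 2 higher, against 31.4% of all 12379 genes called, 16.1% lower and 15.3% higher. BCPAP had 6 lower and 1 higher calls, against 16.3% of all genes, 7.6% lower and 8.65% higher. K1 had 5 calls, all lower, against 10.6% of all genes and 5.93% lower. A gene was called where limma gave it a p under 0.05 after Benjamini-Hochberg adjustment over all 12379 genes (padj), with the brightest probe above background standing for a gene. The 9 genes had a median log2 change of -0.54, -0.49 and -0.36 in these lines, beside medians of 0.00, 0.01 and 0.00 over all genes. The genes called lower in all 3 lines were HSP90B1, PDIA6 and SDF2L1, against 1.09% of all genes. Quantile normalization gives every array the same distribution of signal. With each array centred on its median instead, the median change of all genes became -0.21, 0.24 and -0.10, and in BCPAP the changes of PDIA6, SDF2L1 and HSPA5 turned to 0.02, 0.08 and 0.40. The changes of 7, 6 and 8 of the 9 genes lay below that shift in TPC1, BCPAP and K1, which was not tested. With 33.8% to 43.1% of an array's probes above background, its median (100.3 to 123.2) was the signal of a probe not above background. Replicate 2 of untreated BCPAP had a mean of 215.4 and a median of 100.3, beside 316.3 and 111.2 on replicate 1. How far this made the shift in BCPAP was not tested. With median centring the calls over all genes went mostly one way, with 8.6%, 99.7% and 5% of them higher in the 3 lines. Under quantile normalization 48.8%, 53.2% and 43.8% of the calls were higher. Tested against no change, median centring called 5 chaperones lower (19.3% of all genes) and DNAJB9 higher (1.82%) in TPC1, DNAJB9 alone, as higher, in BCPAP (16.9% of all genes), and SDF2L1 alone, as lower, in K1 (1.07%).

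**Figure D1:**
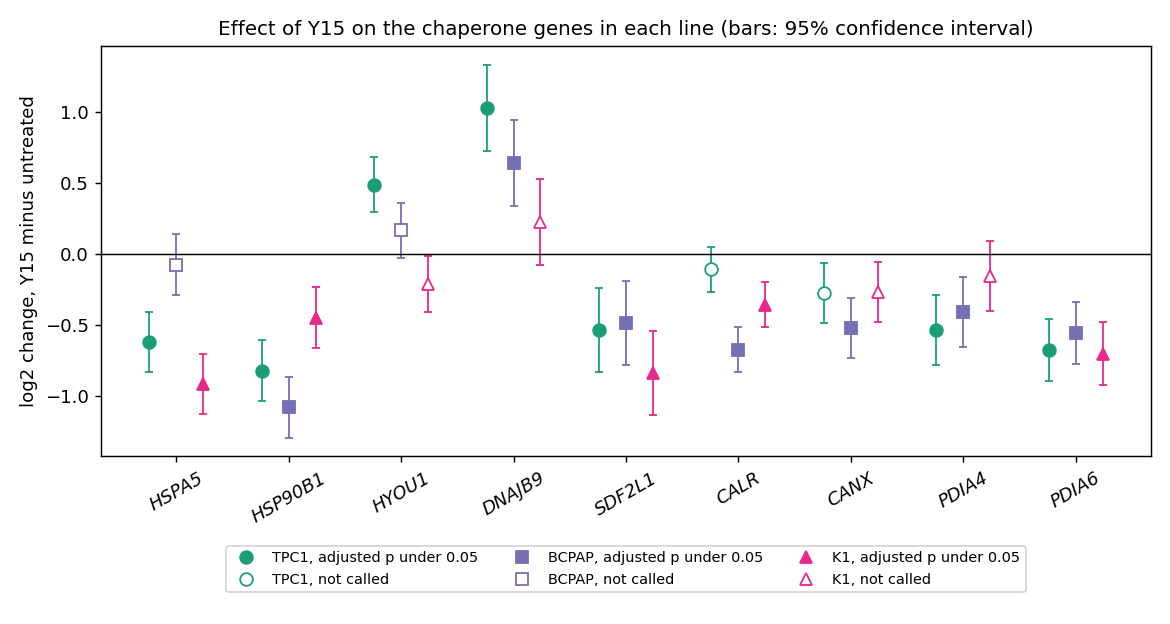
Log2 change with Y15 (treated minus untreated, quantile-normalized signal) of the 9 chaperone genes tested in TPC1 (circles), BCPAP (squares) and K1 (triangles), with 95% confidence intervals from limma and filled symbols at an adjusted p under 0.05. PDIA6, SDF2L1 and HSP90B1 are below 0 and filled in every line (with median centring PDIA6 and SDF2L1 turn to 0.02 and 0.08 in BCPAP), whereas DNAJB9 lies above 0.

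HSPA5 encodes BiP, the Hsp70 of the endoplasmic reticulum, which also keeps the stress sensors inactive in unstressed cells. Its log2 signal was 9.49 and 9.31 in untreated TPC1 and 8.83 and 8.73 with Y15. In BCPAP it was 8.68 and 8.51 untreated and 8.55 and 8.49 with Y15. In K1 it was 9.04 and 9.03 untreated and 8.01 and 8.23 with Y15. Both Y15 arrays lay below both untreated arrays in TPC1 and K1, and in BCPAP the groups overlapped. With Y15, HSPA5 dropped by 0.62 log2 units in TPC1 (SE 0.0970, padj = 0.000565), and in K1 it dropped by 0.92 (padj = 0.000358). In BCPAP the change was -0.07, with a 95% confidence interval of -0.29 to 0.14 (padj = 0.654). The 3 lines responded differently to Y15 (moderated F test of limma, padj = 0.00454), with differences of -0.55 between TPC1 and BCPAP (padj = 0.0198) and 0.84 between BCPAP and K1 (padj = 0.00530). BCPAP also had the lowest HSPA5 signal before treatment. With median centring the F test was still passed (padj = 0.0234), the change in BCPAP was 0.40 (padj = 0.280), and the change in K1 was -1.17 and not called (padj = 0.0623). Without replicate 1 of untreated BCPAP the change in BCPAP was 0.01.

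HSP90B1 encodes GRP94, the Hsp90 of the endoplasmic reticulum, which folds integrins and Toll-like receptors among others. Its log2 signal was 12.84 and 12.70 in untreated TPC1 and 12.02 and 11.86 with Y15. BCPAP cells had 12.11 on both untreated arrays and 10.97 and 11.08 with Y15. K1 cells had 12.65 and 12.77 untreated and 12.15 and 12.38 with Y15. The groups were apart in every line. HSP90B1 dropped by 1.08 log2 units in BCPAP (SE 0.0975, padj = 6.88e-05), a 2.12-fold lower signal. It dropped by 0.83 in TPC1 (padj = 8.94e-05) and by 0.45 in K1 (padj = 0.0153). Its response was unlike across the lines (F test, padj = 0.0223), and the change in BCPAP was lower than that in K1 by a log2 difference of -0.63 (padj = 0.0211). The call in K1 ended without either untreated replicate (padj = 0.0579 and 0.119) or without Y15 replicate 1 (padj = 0.0517). With median centring HSP90B1 was called only in TPC1 (-1.18, padj = 0.0103), the values in BCPAP and K1 were -0.56 (padj = 0.128) and -0.67 (padj = 0.232), and the F test was not passed (padj = 0.288).

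HYOU1 encodes GRP170, a large Hsp70 relative that exchanges the nucleotide of BiP. On its brighter probe the log2 signal was 7.89 and 7.93 in untreated TPC1 and 8.43 and 8.37 with Y15. The BCPAP arrays read 8.20 and 8.15 untreated and 8.34 and 8.35 with Y15. The K1 arrays read 8.11 and 8.04 untreated and 7.72 and 8.0 with Y15. The Y15 arrays were the higher ones in TPC1 and BCPAP and the lower ones in K1. HYOU1 rose by a log2 change of 0.49 in TPC1 (SE 0.0895, padj = 0.00166). The change was 0.17 in BCPAP (padj = 0.242) and -0.21 in K1 (padj = 0.158). The lines responded differently (F test, padj = 0.00873), most clearly TPC1 and K1, which were 0.70 apart (padj = 0.00597). The probes disagreed in TPC1. On the dimmer probe the log2 signal there was 7.81 and 7.78 untreated and 7.92 and 7.95 with Y15, a change of 0.14 that was not called (padj = 0.255 over 21600 probes above background). Its changes were 0.20 in BCPAP (padj = 0.128) and -0.25 in K1 (padj = 0.0861), and this probe, too, passed the F test for unlike responses (padj = 0.0353). With median centring the value of the brighter probe in TPC1 was 0.11 and was not called (padj = 0.743), below the 0.58 of BCPAP (padj = 0.0810), and the F test was not passed (padj = 0.0732). Without Y15 replicate 2 the fall in K1 was called (-0.35, padj = 0.00560).

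**Figure D2:**
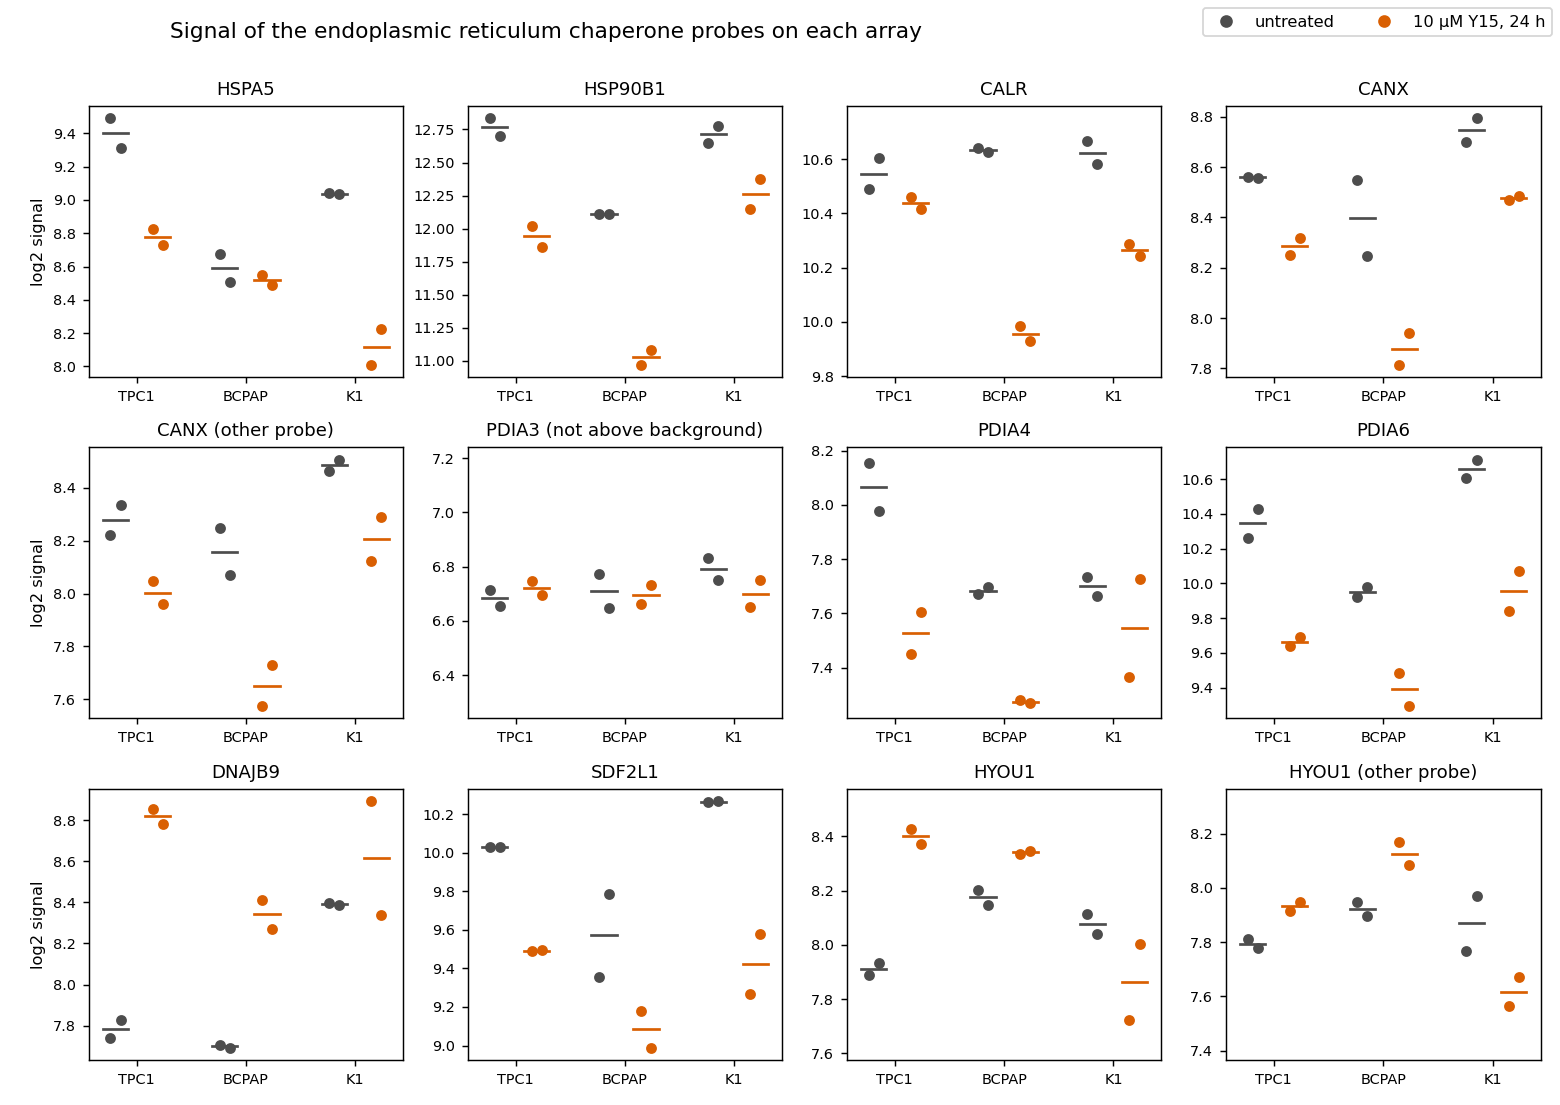
Log2 quantile-normalized signal of the 12 probes of the 10 chaperone genes on each of the 12 arrays, untreated (grey) or with 10 µM Y15 for 24 h (orange), with a bar at the mean of each pair and an axis of its own for each probe. HSP90B1 and PDIA6 drop in every line, DNAJB9 climbs in TPC1 and BCPAP, the pair of K1 arrays with Y15 spreads from 8.34 to 8.89 for DNAJB9, and PDIA3 stays between 6.65 and 6.83, not above background (with median centring PDIA6 turns to 0.02 in BCPAP).

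DNAJB9 and SDF2L1 encode partners of BiP. DNAJB9 encodes ERdj4, a J-domain protein that is known to bring BiP to the sensor IRE1. Its log2 signal was 7.74 and 7.83 in untreated TPC1 and 8.85 and 8.78 with Y15. For BCPAP the signal was 7.71 and 7.69 untreated and 8.41 and 8.27 with Y15. For K1 the signal was 8.40 and 8.39 untreated and 8.89 and 8.34 with Y15. Both Y15 arrays were the higher ones in TPC1 and BCPAP, while in K1 one Y15 array was above and the other below the untreated pair. DNAJB9 rose by a log2 change of 1.03 in TPC1 (SE 0.139, padj = 0.000218), a 2.04-fold higher signal, and by 0.64 in BCPAP (padj = 0.00980). In K1 the change was 0.22 (padj = 0.357), with a 95% confidence interval of -0.08 to 0.53. The K1 value rested on the replicates with Y15, since it was 0.50 without replicate 2 (padj = 0.000671) and -0.05 without replicate 1 (padj = 0.813). Here again the lines responded differently (F test, padj = 0.0371), with 0.81 between TPC1 and K1 (padj = 0.0280). With median centring the F test was still passed (padj = 0.0347), but the value in BCPAP (0.95) was above that in TPC1 (0.65). Minus the median change of all genes these values were 0.71 and 0.86. The difference between TPC1 and K1 was not called with median centring (padj = 0.261). The call in BCPAP ended without untreated replicate 2 (padj = 0.0600) or without Y15 replicate 1 (padj = 0.0904).

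SDF2L1 encodes a small luminal protein that forms a complex with ERdj3, another J-domain partner of BiP. Its log2 signal was 10.03 on both untreated arrays of TPC1 and 9.49 on both with Y15. In BCPAP it was 9.36 and 9.78 untreated and 9.18 and 8.99 with Y15. In K1 it was 10.26 and 10.27 untreated and 9.27 and 9.58 with Y15. The Y15 arrays were the lower ones in every line, with the widest spread between replicates in untreated BCPAP and in K1 with Y15. SDF2L1 changed by -0.84 in K1 (SE 0.135, padj = 0.00356), -0.54 in TPC1 (padj = 0.0104) and -0.49 in BCPAP (padj = 0.0314), where it turned to 0.08 with median centring. SDF2L1 did not pass the F test for unlike responses (padj = 0.342), although it did with median centring (padj = 0.0239). In TPC1 leaving out any 1 of its 4 arrays ended the call (padj = 0.0571 to 0.0597). In BCPAP the call ended in 9 of the 12 fits that left out 1 array, with changes from -0.58 without Y15 replicate 1 to -0.27 without untreated replicate 2.

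Calreticulin and calnexin bind newly made glycoproteins that carry a single glucose and hold them until they fold. CALR, which encodes the soluble calreticulin, had a log2 signal of 10.49 and 10.60 in untreated TPC1 and 10.46 and 10.42 with Y15. BCPAP cells had 10.64 and 10.63 untreated and 9.99 and 9.93 with Y15. K1 cells had 10.67 and 10.58 untreated and 10.29 and 10.24 with Y15. The groups lay close together in TPC1 and well apart in BCPAP. CALR dropped by 0.68 log2 units in BCPAP (SE 0.0718, padj = 0.000191) and by 0.36 in K1 (padj = 0.0103). In TPC1 the change was -0.11, with a 95% confidence interval of -0.27 to 0.05 (padj = 0.294). CALR responded differently across the lines (F test, padj = 0.00831), with 0.57 between TPC1 and BCPAP (padj = 0.00339). With median centring that difference turned to -0.41 (padj = 0.305), since CALR was -0.53 in TPC1 and -0.12 in BCPAP. Minus the median change of all genes these values were -0.32 and -0.36. Neither the F test (padj = 0.388) nor any line was called with median centring (padj = 0.129, 0.755 and 0.255). The call in K1 also ended without untreated replicate 1 (padj = 0.103).

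CANX, which encodes the membrane-bound calnexin, had a log2 signal on its brighter probe of 8.56 on both untreated arrays of TPC1 and 8.25 and 8.32 with Y15. The BCPAP arrays read 8.55 and 8.25 untreated and 7.81 and 7.94 with Y15. The K1 arrays read 8.70 and 8.80 untreated and 8.47 and 8.48 with Y15. Every Y15 array was lower than the untreated arrays of its line. CANX fell by 0.52 in BCPAP (SE 0.0967, padj = 0.00458), and this call ended without Y15 replicate 1 (padj = 0.0540) and with median centring (-0.10, padj = 0.798). The change was -0.27 in both TPC1 (padj = 0.0507) and K1 (padj = 0.101). The dimmer probe gave nearly the same changes, -0.27 in TPC1, where it was called (padj = 0.0470, against 25.7% of all probes), -0.51 in BCPAP (padj = 0.00459, against 13.4% of all probes) and -0.28 in K1 (padj = 0.0899, against 7.81% of all probes called). CANX did not pass the F test for unlike responses (padj = 0.312). TPC1 was called on the brighter probe too when either replicate of untreated BCPAP (padj = 0.0159) or either K1 array with Y15 (padj = 0.0263) was left out, and K1 when either replicate of untreated BCPAP was left out (padj = 0.0442).

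Of the disulfide isomerases, PDIA6 was lower in every line and PDIA4 in TPC1 and BCPAP, but with median centring they were called in TPC1 only, and PDIA3 could not be judged. PDIA6, also called P5, acts together with BiP and had a log2 signal of 10.26 and 10.43 in untreated TPC1 and 9.64 and 9.69 with Y15. For BCPAP the signal was 9.92 and 9.98 untreated and 9.49 and 9.29 with Y15. For K1 the signal was 10.61 and 10.71 untreated and 9.84 and 10.07 with Y15. The groups were apart in all 3 lines by about the same distance. The drop of PDIA6 was -0.68 in TPC1 (SE 0.0999, padj = 0.000393), -0.70 in K1 (padj = 0.00184) and -0.56 in BCPAP (padj = 0.00391), where it turned to 0.02 with median centring. PDIA6 did not pass the F test for unlike responses (padj = 0.697). The difference of its effect between TPC1 and K1 was 0.02, with a 95% confidence interval of -0.29 to 0.33. All 3 calls held whichever array was left out. The value in K1 was -0.96 and not called with median centring (padj = 0.0984).

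PDIA4, also called ERp72, had a log2 signal of 8.16 and 7.98 in untreated TPC1 and 7.45 and 7.60 with Y15. In BCPAP it was 7.67 and 7.70 untreated and 7.28 and 7.27 with Y15. In K1 it was 7.73 and 7.67 untreated and 7.36 and 7.73 with Y15. In K1 the Y15 pair overlapped the untreated pair, and in the other lines it lay below. PDIA4 was lower in TPC1 (-0.54, SE 0.112, padj = 0.00350) and BCPAP (-0.41, padj = 0.0297), and in K1 the change was -0.15 (padj = 0.444). The value in BCPAP was -0.12 and not called with median centring (padj = 0.689). K1 cells had -0.33 without Y15 replicate 2 (padj = 0.0183) and 0.03 without replicate 1, and in BCPAP leaving out any 1 of its 4 arrays ended the call (padj = 0.0846 to 0.132). The F test for unlike responses was not passed (padj = 0.214). PDIA3, which encodes ERp57, the isomerase that works with calreticulin and calnexin, had 1 probe, with detection p-values of 0.0844 to 0.835. It was not above background on any of the 12 arrays, so no change is given for it.

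Responses to Y15 were unlike across the lines for 5 of the 9 genes by the F test, HSPA5, HSP90B1, HYOU1, DNAJB9 and CALR, against 18.5% of all genes. No single line stood out in all 5. HSPA5 moved least in BCPAP under both scalings. CALR moved least in TPC1 and HSP90B1 in K1, whereas with median centring both moved least in BCPAP. Minus the median change of all genes under median centring, CALR was -0.32, -0.36 and -0.51 in TPC1, BCPAP and K1. HSP90B1 was then -0.97, -0.80 and -0.57, so that these again moved least in TPC1 and K1, which was not tested. HYOU1 and DNAJB9 had their highest change in TPC1, or in BCPAP with median centring, and their lowest in K1 under both scalings. Minus the same median, DNAJB9 was higher in TPC1 (0.86) than in BCPAP (0.71), and HYOU1 was 0.32 and 0.34. TPC1 and BCPAP differed for 2 of the 9 genes (17.3% of all genes), TPC1 and K1 for 2 (8.15%) and BCPAP and K1 for 2 (7.25%). These comparisons share arrays with each other. The count of 5 was 3 with median centring (HSPA5, DNAJB9 and SDF2L1, against 25.4% of all genes). It was also lower with neqc background correction. The same held without replicate 2 of untreated BCPAP, replicate 1 of BCPAP with Y15 or replicate 1 of untreated K1. For these fits the shares of all genes are not given.

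The pair of K1 arrays with Y15, which correlated least, differed in single chaperones. Relative to the mean of untreated K1, DNAJB9 was at 0.50 on replicate 1 and -0.05 on replicate 2, PDIA4 at -0.33 and 0.03, HYOU1 at -0.35 and -0.07 and SDF2L1 at -0.99 and -0.68. The median of the 9 genes was -0.35 on replicate 1 and -0.34 on replicate 2, with 8 genes below the untreated mean on each, and the gene above it was DNAJB9 on the one and PDIA4 on the other. In TPC1 it was -0.54 and -0.46 and in BCPAP -0.40 and -0.46, with 7 genes below on every array. The groups did not overlap for 7 genes with Y15 lower in TPC1 (36.7% of all genes), for 6 in BCPAP (27% of all genes) and for 7 in K1 (25.2% of all genes). They did not overlap with Y15 higher for 2 genes in TPC1 (35.9% of all genes) and for 2 in BCPAP (31.2% of all genes). Leaving out K1 replicate 2 with Y15 raised the calls in K1 to 8, with DNAJB9 higher, and those over all genes to 28.5%. Leaving out replicate 1 with Y15 gave 4 calls (8.78% of all genes), HSPA5, CALR, PDIA6 and SDF2L1, with the array that remained assumed to vary like the others. Fitted on the 4 K1 arrays alone, limma called 0 of the 9 and 0 of all 12379 genes, while 6 of the 9 and 1995 of all genes had an unadjusted p under 0.05.

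**Figure D3:**
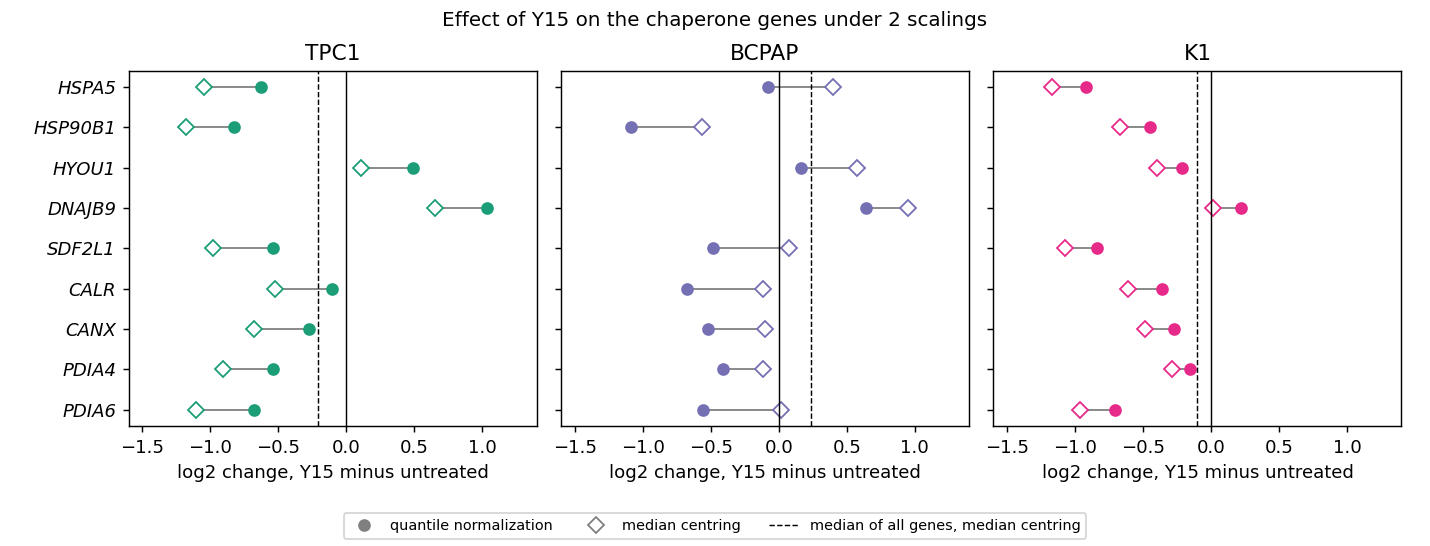
Log2 change with Y15 of the 9 chaperone genes in each line under quantile normalization (filled circles) and with each array centred on its median (open diamonds), with a solid line at 0 and a dashed line at the median change of all genes under median centring. The dashed line sits at -0.21 in TPC1, 0.24 in BCPAP and -0.10 in K1, and in BCPAP PDIA6, SDF2L1 and HSPA5 turn to 0.02, 0.08 and 0.40.

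Before treatment the lines differed in 7 of the 9 genes, against 63.9% of all genes (F test of limma, padj under 0.05). The exceptions were CALR (padj = 0.491) and HYOU1 (padj = 0.0579). BCPAP was the lowest line for HSPA5, HSP90B1, PDIA6 and SDF2L1, and K1 was the highest for DNAJB9 and PDIA6. HSPA5 was ordered TPC1, K1, BCPAP, with group means of 9.40 ± 0.13, 9.04 ± 0.01 and 8.59 ± 0.12 (SD, n = 2), and each neighbour differed (0.36 between TPC1 and K1, padj = 0.0113, and -0.45 between BCPAP and K1, padj = 0.00265). HSP90B1 did not differ between TPC1 and K1 beyond its spread (0.05, padj = 0.719) and was higher in TPC1 than in BCPAP by 0.66 (padj = 0.000155). PDIA6 was ordered K1, TPC1, BCPAP, with -0.31 between TPC1 and K1 (padj = 0.0277) and 0.40 between TPC1 and BCPAP (padj = 0.00569). SDF2L1 had the same order, but K1 and TPC1 did not differ beyond their spread (-0.24, padj = 0.203). DNAJB9 was highest in K1, with a log2 difference of -0.61 for TPC1 minus K1 (padj = 0.00471) and of -0.69 for BCPAP minus K1 (padj = 0.00158), and TPC1 and BCPAP did not differ beyond their spread (padj = 0.636). PDIA4 was highest in TPC1, by 0.38 over BCPAP (padj = 0.0133) and by 0.37 over K1 (padj = 0.0229). For CANX the pair that differed was BCPAP and K1 (-0.35, padj = 0.0112). Over the 9 genes, TPC1 and BCPAP differed in 6 (53% of all genes), TPC1 and K1 in 4 (37.6%) and BCPAP and K1 in 6 (48.2%), and in the last comparison all 6 were lower in BCPAP. With median centring BCPAP was the lowest line for all 9 genes, CALR passed the F test (padj = 0.0390), DNAJB9 was higher in TPC1 than in BCPAP (0.63, padj = 0.00901), and the differences between TPC1 and K1 were not called for HSPA5 (padj = 0.329), PDIA6 (padj = 0.323) and PDIA4 (padj = 0.0975).

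**Figure D4:**
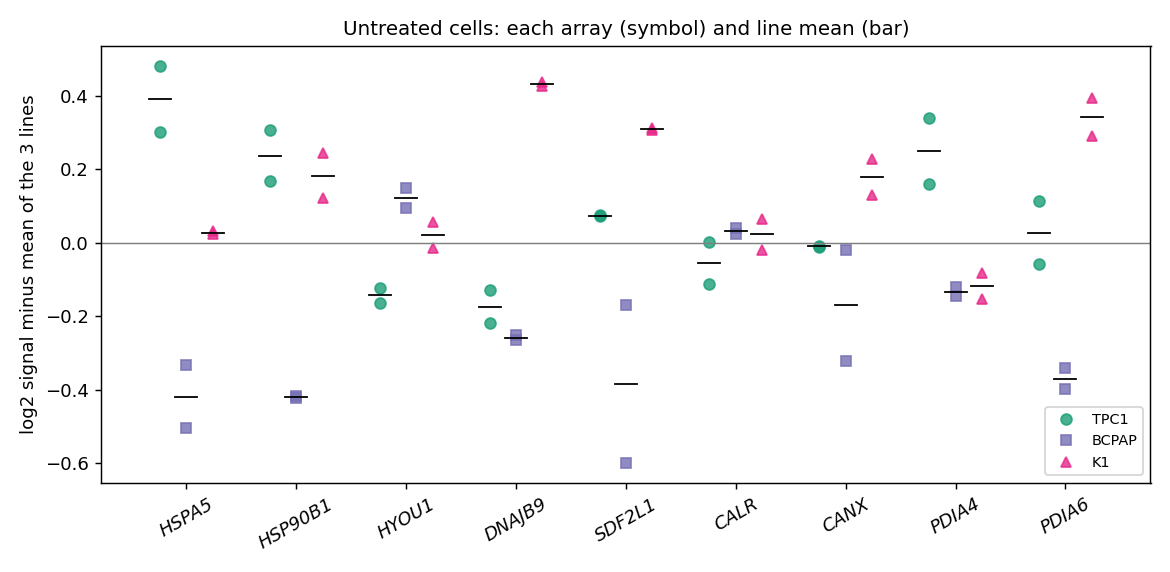
Log2 signal of the 9 chaperone genes on each untreated array minus the mean of the 3 lines, with TPC1 (circles), BCPAP (squares), K1 (triangles) and a bar at each line's mean of 2 arrays. BCPAP lies lowest for HSPA5, HSP90B1, SDF2L1 and PDIA6 and K1 highest for DNAJB9, while the lines overlap for CALR.

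Over the 12 arrays, after subtracting each line's mean, PDIA6 and SDF2L1 tracked the rest of the chaperones most closely. The Pearson correlation of a gene with the mean of the other 8 was 0.936 for PDIA6, 0.915 for SDF2L1, 0.823 for CALR, 0.814 for CANX, 0.790 for HSP90B1, 0.759 for HSPA5 and 0.706 for PDIA4. It was -0.29 for HYOU1 and -0.84 for DNAJB9, which moved against the rest. The pair most alike was PDIA6 and SDF2L1 (0.95) and the pair most opposed was DNAJB9 and PDIA4 (-0.98). On K1 replicate 2 with Y15, for example, DNAJB9 was at 8.34 and PDIA4 at 7.73, near the untreated K1 values of 8.40 and 8.39 for DNAJB9 and of 7.73 and 7.67 for PDIA4. These correlations describe arrays that share the contrast of treated and untreated cells. Among all other genes tested, those most like the mean of the 9 were PIF1, a DNA helicase (0.985), EFEMP1, a matrix glycoprotein (0.970), ALDH18A1, an enzyme of proline synthesis (0.969), TMSB15A, a thymosin (0.967), and ARL2, a small GTPase (0.963).

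Other genes of the endoplasmic reticulum moved in both directions. Among 28 other folding factors tested (of 31 listed), TPC1 had 9 lower and 5 higher calls, BCPAP 4 lower and 1 higher, and K1 5, all lower. Of all genes 31.4%, 16.3% and 10.6% were called in these lines, and the share of the list in BCPAP was near that. The medians of the list were -0.12, -0.01 and -0.08. With median centring TPC1 had 7 lower calls (19.3% of all genes) and BCPAP 3 higher (16.9% of all genes). P4HB, which encodes the founding protein disulfide isomerase, fell in TPC1 (-0.57, padj = 0.000207) and BCPAP (-0.28, padj = 0.0312, and 0.25 with median centring), and PDIA5 in K1 (-0.69, padj = 0.000902) and TPC1 (-0.45, padj = 0.00237). Another disulfide isomerase relative, TXNDC12, named after the values were seen, was higher in TPC1 (0.25, padj = 0.0498) and lower in BCPAP (-0.39, padj = 0.0128). With median centring both directions turned, to -0.16 in TPC1 (padj = 0.586) and 0.18 in BCPAP (padj = 0.543), and neither was called. MANF, a secreted protein that binds BiP, was called lower in all 3 lines (-0.49, -0.40 and -0.53, with padj = 0.00332, 0.0221 and 0.00869), although with median centring its change in BCPAP was 0.18. The prolyl isomerase gene FKBP2 fell in TPC1 (-0.63, padj = 0.000361) and K1 (-0.46, padj = 0.00959), CNPY3, a partner of GRP94 for Toll-like receptors, in TPC1 (-0.60, padj = 0.000264), TXNDC5 in K1 (-0.47, padj = 0.0214) and the oxidase gene ERO1A in BCPAP (-0.49, padj = 0.0256, and 0.00 with median centring). TOR1A, an ATPase of the lumen, rose in BCPAP (0.65, padj = 0.000439) and TPC1 (0.36, padj = 0.00429, and -0.10 with median centring). Outside the rule for naming, and chosen after the values were seen, DNAJB11, which encodes ERdj3, rose in TPC1 (0.38, padj = 0.00629, and -0.07 with median centring).

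KDEL receptors bring escaped chaperones back from the Golgi by the tail that many of them carry. Of the 2 tested (of 3 listed), both were called lower in TPC1 and BCPAP and KDELR3 in K1. Of all genes 16.1%, 7.6% and 5.93% were called lower in these lines. KDELR3 changed by -1.08 in TPC1 (padj = 4.49e-05), -0.49 in BCPAP (padj = 0.0159, and 0.07 with median centring) and -0.89 in K1 (padj = 0.00110). KDELR1 changed by -0.29 in TPC1 (padj = 0.0384), -0.59 in BCPAP (padj = 0.00240, and -0.02 with median centring) and -0.05 in K1 (padj = 0.795). Among 15 genes of glycan trimming, TPC1 had 4 lower calls and 1 higher, BCPAP 3 and K1 1, all lower in the latter lines. The counts of both directions together were near the 31.4%, 16.3% and 10.6% of all genes called. The medians of the glycan list were -0.20, -0.21 and -0.12. With median centring TPC1 had 6 lower calls (19.3% of all genes). In BCPAP limma then called 0 (16.9% of all genes), with 2 at an unadjusted p under 0.05. UGGT1, which puts the glucose back on misfolded glycoproteins so that calreticulin and calnexin bind them again, fell in BCPAP (-0.35, padj = 0.0134, and -0.01 with median centring) and K1 (-0.30, padj = 0.0372), and in TPC1 it was -0.23 (padj = 0.0508). GANAB, the trimming glucosidase, fell in BCPAP (-1.0, padj = 0.0074). The oligosaccharyltransferase subunit DDOST fell in TPC1 (-0.63, padj = 0.00213) and STT3B in TPC1 (-0.30, padj = 0.0260) and BCPAP (-0.31, padj = 0.0384, and 0.11 with median centring), while the cargo receptor gene MCFD2 rose in TPC1 (0.98, padj = 9.04e-05).

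Among 17 sensors and factors of the unfolded protein response tested (of 20 listed), TPC1 had 9 higher calls and 1 lower, BCPAP 8 higher and 1 lower, and K1 2, both higher. Of all genes 15.3%, 8.65% and 4.62% were called higher in these lines and 31.4%, 16.3% and 10.6% either way. The medians of the list were 0.26, 0.18 and 0.07, and 7, 8 and 15 of its genes were not called. With median centring TPC1 had 5 higher calls (1.82% of all genes) and 1 lower (19.3%). BCPAP then had 8, all higher (16.9% of all genes). Of the sensor genes, EIF2AK3, which encodes PERK, was not called in any line (-0.09, 0.07 and -0.09). TRIB3, a pseudokinase gene induced by ATF4, was called higher in all 3 lines (2.52, 2.46 and 1.74, with padj = 0.00218, 0.00602 and 0.0423). So was the sensor gene ATF6 (0.31, 0.55 and 0.40, with padj = 0.0186, 0.00197 and 0.0156), although with median centring ATF6 was -0.15 in TPC1. In K1 median centring called neither TRIB3 (1.60, padj = 0.198) nor ATF6 (0.17, padj = 0.822). ATF3 rose in TPC1 (2.85, padj = 0.000161) and BCPAP (1.70, padj = 0.00966), and in K1 it was 1.16 (padj = 0.0687). DDIT3, which encodes CHOP, rose in TPC1 (1.65, padj = 0.000527) and BCPAP (1.89, padj = 0.000771), and PPP1R15A, which encodes the phosphatase partner GADD34, in TPC1 (2.38, padj = 0.000604) and BCPAP (1.29, padj = 0.0376). XBP1, outside the rule for naming and chosen after the values were seen, is the transcription factor activated by IRE1 and a known driver of DNAJB9. It rose in TPC1 (0.78, padj = 0.000270) and BCPAP (0.72, padj = 0.00137), and in K1 it was -0.12 (padj = 0.532). With median centring XBP1 was 0.35 and not called in TPC1 (padj = 0.295), and it was 1.33 in BCPAP (padj = 0.0109). A link between the changes of XBP1 and DNAJB9 was not tested. CREB3L2, likewise chosen after the values were seen, was the gene called lower in TPC1 (-0.83, padj = 5.12e-05) and BCPAP (-0.99, padj = 7.16e-05).

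**Figure D5:**
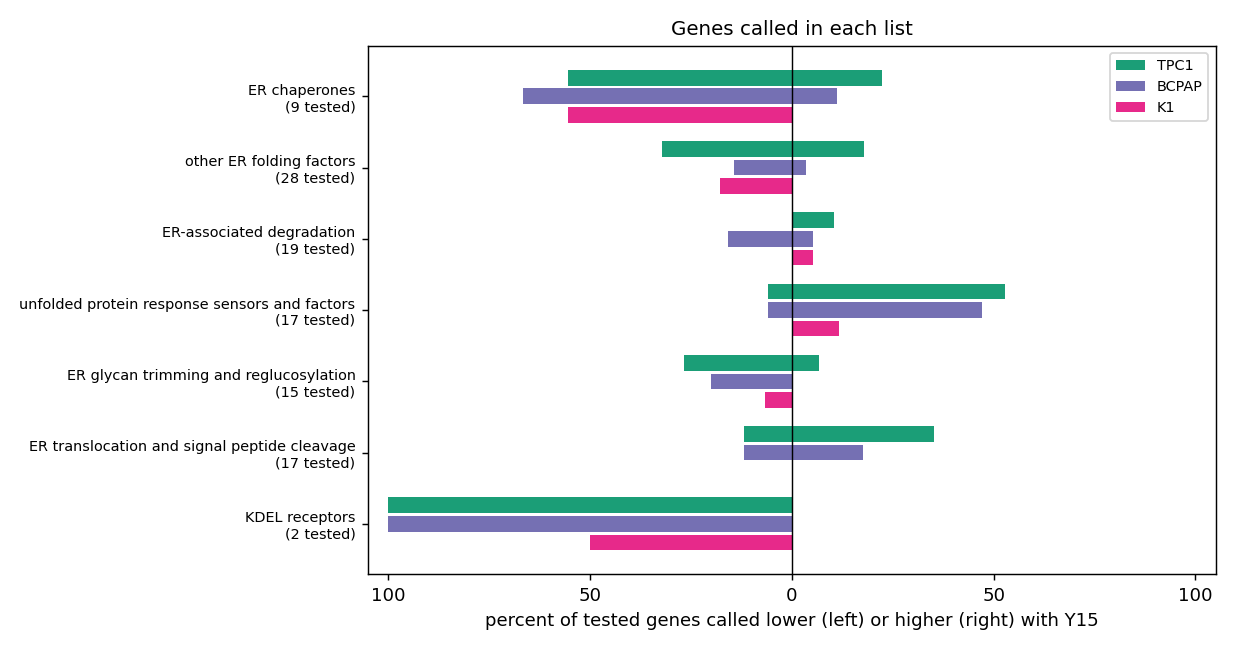
Percent of tested genes called lower (left) or higher (right) with Y15 at an adjusted p under 0.05. Shown are the chaperone list and 6 other lists of genes of the endoplasmic reticulum, for TPC1, BCPAP and K1. Of all genes 16.1%, 7.6% and 5.93% were called lower and 15.3%, 8.65% and 4.62% higher in these lines. The chaperones lie mostly to the left, with 5, 6 and 5 of 9 called lower, and the unfolded protein response list to the right, with 9, 8 and 2 of 17 called higher (with median centring 5 chaperones were called lower and 1 higher in TPC1, 1 higher in BCPAP and 1 lower in K1).

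Calls among genes of protein entry and disposal also went in both directions. With median centring those called were lower in TPC1 (1 of degradation and 2 of translocation, against 19.3% of all genes). In BCPAP they were higher (6 and 5, against 16.9% of all genes). Over all 6 lists median centring called 0 of 98 genes in K1 (1.13% of all genes), with 19 at an unadjusted p under 0.05. Of 19 genes of endoplasmic reticulum associated degradation tested (of 22 listed), TPC1 had 2 calls, both higher. BCPAP had 1 higher and 3 lower, and K1 had 1, which was higher. Over all genes 31.4%, 16.3% and 10.6% were called in these lines, so the list had a smaller share in TPC1 and K1. AUP1 rose in TPC1 (0.56, padj = 0.00451) and K1 (0.55, padj = 0.0167), and DERL2, a subunit of the channel that carries misfolded proteins out, in TPC1 (0.58, padj = 0.00590). SELENOS, a partner of that channel, rose in BCPAP (0.48, padj = 0.0115), where the ubiquitin conjugating enzyme genes UBE2J1 (-0.57, padj = 0.00777) and UBE2G2 (-0.35, padj = 0.0191, and 0.22 with median centring) fell. Of 17 genes of translocation and signal peptide cleavage tested (of 18 listed), TPC1 had 6 higher calls and 2 lower (31.4% of all genes). BCPAP had 3 higher and 2 lower (16.3% of all genes). In K1 limma called 0 of the 17 (10.6% of all genes), with 4 at an unadjusted p under 0.05. SEC11C, a subunit of signal peptidase, rose in TPC1 (0.83, padj = 5.5e-06) and BCPAP (0.41, padj = 0.00245), and SRPRB, of the receptor for the signal recognition particle, in TPC1 (0.72, padj = 0.000216). SSR4 (0.44, padj = 0.00292) and SSR1 (-0.60, padj = 0.0131), both of the translocon-associated complex, moved apart in BCPAP, and TRAM1 fell in TPC1 (-0.56, padj = 0.000540) and BCPAP (-0.31, padj = 0.0321, and 0.29 with median centring).

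Some cell type markers moved with Y15 as well. PAX8 was called lower in all 3 lines (-0.80, -0.35 and -0.48, and 0.19 in BCPAP with median centring), FOXE1 (-0.64, padj = 0.000205) and the keratin gene KRT7 (-0.49, padj = 0.000791) in TPC1 and NKX2-1 (-0.35, padj = 0.00443, and 0.14 with median centring) in BCPAP. The summed signal of the 8 thyroid markers went from 3852 to 3874 on untreated TPC1 arrays to 2480 to 2540 with Y15. In BCPAP it went from 1815 to 1843 to 1562 to 1569, and in K1 from 3931 to 4144 to 2997 to 3241. PAX8 had log2 signals of up to 11.69, above NKX2-1 (up to 8.76) and FOXE1 (up to 8.14). TG, SLC5A5, TSHR, DIO1 and DIO2 reached no more than 7.17, so the sum follows few of the 8 markers. Of the markers of other cell types, COL1A1 was called lower in BCPAP (-0.56, padj = 0.00368) and K1 (-0.34, padj = 0.0492) and CD14 in K1 (-1.16, padj = 0.000292), where the summed signal of the 9 markers was 1561 to 1595 untreated and 1155 to 1211 with Y15. It was 1002 to 1013 and 994.3 to 1005 in TPC1 and 1105 to 1229 and 1045 to 1047 in BCPAP. Their part in the changes of the chaperones was not tested.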

How the data were processed

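RNA of the cells was labelled and hybridised to Illumina bead arrays. The authors deposited GenomeStudio signal intensity per probe, not background corrected as far as the sources state, with a detection p-value from the negative control beads on the array, and log2 values after quantile normalization. The deposited log2 values were recomputed from the intensities with a largest difference of 5e-09. Of 47323 probes, 12 without a value were left out, 30113 had 1 gene symbol in GEO's platform annotation, 8 had several and were not named, and 17194 of those with values were unnamed. Symbols were updated through the Entrez identifier. The methods name a HumanRef-8 chip, while the annotation is that of another bead chip.

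Log2 intensities were quantile normalized, and 12379 genes with a detection p under 0.05 on both arrays of at least 1 group, each by its brightest probe, were fitted with limma 3.58.1 (lmFit and eBayes, R 4.3.3) as 6 group means over 12 arrays. Second probes of a gene were fitted over 21600 probes above background. Calls used an adjusted p under 0.05 (Benjamini-Hochberg). The fit was tested on simulated data. The number of arrays limits the precision. The chaperones, the other lists and the tests were chosen with earlier results of these data known. Up to 3 genes per other list and line were named, those with the greatest change among called genes whose Y15 arrays lay on one side of the untreated arrays, and the 5 genes most like the chaperones. Promoter windows were RefSeq's (GRCh38.p14). Alternatives were median centring, neqc background correction, the deposited log2 values, a detection p under 0.01 or no filter, the mean of a gene's probes, array weights, the 4 arrays of a line alone, the methods' rule (p under 0.05 and a fold of at least 1.2), the replicate number as a block and leaving out each array.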

Additional observations from a re-analysis of the deposited data

Results flagged for a closer look

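The response to Y15 differed between TPC1, BCPAP and K1 for 5 chaperone genes (moderated F test of limma, adjusted over 12379 genes). The adjusted p was 0.00454 for HSPA5, which was lower in TPC1 and K1, and 0.0223 for HSP90B1, with the lowest change in BCPAP. It was 0.00831 for CALR, with the lowest change in BCPAP, 0.0371 for DNAJB9 and 0.00873 for HYOU1, both with their highest change in TPC1. With median centring the test was not passed by HSP90B1 (0.288), CALR (0.388) and HYOU1 (0.0732), and CALR and HSP90B1 changed least in BCPAP. DNAJB9 (0.95 against 0.65 in TPC1) and HYOU1 (0.58 against 0.11) then had their highest change in BCPAP. So did the dimmer HYOU1 probe under quantile normalization (0.20 against 0.14). Minus the median change of all genes under median centring, CALR changed least in TPC1 (-0.32) and HSP90B1 in K1 (-0.57). DNAJB9 was then highest in TPC1 (0.86) and HYOU1 in BCPAP (0.34).

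Among the other genes named, the same test was passed by 9. The adjusted p was 0.00287 for MCFD2, 0.00323 for SEC11C, 0.0163 for SRPRB and 0.0153 for CNPY3, which moved most in TPC1. It was 0.0205 for TOR1A, 0.0217 for SSR4, 0.0402 for UBE2G2 and 0.0449 for KDELR1, which moved most in BCPAP. For DDIT3, which rose in TPC1 and BCPAP, it was 0.028. With median centring SEC11C and SRPRB rose more in BCPAP (1.01 and 0.67) than in TPC1 (0.35 and 0.25). KDELR1 was -0.72 in TPC1 and -0.02 in BCPAP, and UBE2G2 was -0.35 and 0.22. MCFD2 was 0.52 in TPC1 and 0.44 in BCPAP, neither called. CNPY3 (-1.03) still moved most in TPC1, and TOR1A (1.22) and SSR4 (1.03) in BCPAP. Most of these genes were named for a change in 1 line on the same arrays, which favours a difference between lines.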

How the results depend on the processing

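The 19 changes called among the chaperones gave 425 results over the alternatives, of which 377 kept direction and call, 46 lost the call and 2 changed sign. Many of these could not move the estimate. The deposited values, detection filters, methods' rule, a line's arrays alone and fits without an array of another line keep the same group means. The counts are therefore no measure of robustness. With median centring 6 chaperones were called in TPC1, 1 in BCPAP (DNAJB9) and 1 in K1 (SDF2L1). Of all genes 21.1%, 16.9% and 1.13% were called in these lines. Unlike responses were called for 3 (HSPA5, DNAJB9 and SDF2L1, against 25.4% of all genes). In BCPAP median centring turned HSPA5 to 0.40, PDIA6 to 0.020, SDF2L1 to 0.076, ERO1A to 0.0024, KDELR3 to 0.073, MANF to 0.18, STT3B to 0.11 and UBE2G2 to 0.22, as all genes shifted by 0.24. With neqc or array weights HSPA5, PDIA6 and SDF2L1 stayed called in K1, while CALR and HSP90B1 lost the call. On the 4 K1 arrays alone limma called 0 chaperones and 0 of all genes. There 6 chaperones and 1995 of all genes had an unadjusted p under 0.05. With neqc unlike responses were called for 3, and the share of all genes is not given. The cause was not tested.

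Leaving out 1 array gave 6 to 8 chaperones called in TPC1, 3 to 7 in BCPAP (3 without Y15 replicate 1 and 4 without untreated replicate 2) and 3 to 8 in K1 (3 without untreated replicate 1 and 8 without Y15 replicate 2). Unlike responses were called for 3 to 6 and untreated differences for 6 to 8. In K1 DNAJB9 ran from -0.054 to 0.50 and PDIA4 from -0.33 to 0.028, lowest for DNAJB9 and highest for PDIA4 without Y15 replicate 1. In BCPAP HSPA5 ran from -0.16 to 0.011.

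Same-numbered arrays had deviations that correlated at 0.19, -0.18 and -0.01 in TPC1, BCPAP and K1, so the numbers were not taken to pair samples. With the replicate number as a block, PDIA4 and SDF2L1 lost the call in BCPAP, and the chaperones called in TPC1 and K1 stayed the same. Unlike responses were then called for 5 and untreated differences for 5, and the shares of all genes are not given. With the numbers crossed in BCPAP, chosen after seeing the data, PDIA4 lost the call there. Of 919 alternatives of the other named genes, each in the line for which the rule named it, 118 lost the call and 5 changed sign. Many of these alternatives, too, kept the same group means. Changes given for further lines were not counted, such as that of P4HB in BCPAP, which turned to 0.25 with median centring.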
